A study of Rattus norvegicus with 8 samples.

Results

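Hepcidin (Hamp) and 9 other genes that take up, carry, store, export or sense iron were examined in the atria and ventricles of the normal rat heart. The genes are Hamp, Tf, Tfrc, Fth1, Ftl1, Slc40a1, Slc11a2, Hfe, Ireb2 and Aco1. They were chosen by their role in iron handling with the atrial and ventricular signal intensities of these arrays in view, so their differences between the tissues are given as a description and without a test. All probe sets annotated to these symbols were taken, which gave 15 of the 31042 probe sets. A probe set is a group of short oligonucleotides on the array that together give 1 value, and it can match more than 1 gene. Of the 15, 11 are annotated to a single gene. The other 4 also match further genes: both probe sets of Tf are shared with Srprb, a subunit of the signal recognition particle receptor, that of Fth1 with a pseudogene, and that of Ftl1 with a pseudogene and other ferritin light chain entries. Tf, Fth1 and Ftl1 have no probe set of their own, and the values below belong to the shared probe sets.

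The tissues were atrial appendages and ventricular free walls from 13 normal male Sprague-Dawley rats of 225 to 275 g, and the study's methods state that they came from the left side. The age of the rats was not given in the sources used here. Tissue was grouped into 4 atrial and 4 ventricular pools, and 10 μg of total RNA of each pool was labelled for 1 Affymetrix Rat Genome 230 2.0 array. A replicate is thus a pool, and p-values measure the spread between pools. Both tissues came from the same set of rats, and which animals went into which pool was not given in the sources used here. Values are log2 signal intensities, differences are atrium minus ventricle, and a mean under a log2 of 4 was counted as lying at the dim end of the scale. Probe sets bind with different strength, so the level of 1 gene was not set against that of another.

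The labels were borne out by chamber markers: 6 of 6 atrial muscle markers were higher in the atria and 6 of 6 ventricular muscle markers were lower, at an adjusted p under 0.05 from limma. The summed signal of the ventricular markers was 3090, 813, 869 and 4680 in atrial replicates 1 to 4, against 23600 to 25000 in the ventricles. Atrial replicates 1 and 4 therefore stood apart. Myl2, the ventricular regulatory light chain, read 10.48 and 11.30 there against 4.32 and 6.82 in replicates 2 and 3. Differences without replicates 1 and 4 are given below for Tf, Ftl1, Aco1, Ireb2, Heph and Flvcr1. The arrays read whole tissue, so more cells of a type and more RNA per cell cannot be told apart.

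Iron circulates bound to transferrin (Tf), which cells take up through the transferrin receptor (Tfrc). The divalent metal transporter (Slc11a2, DMT1) then moves iron out of the endosome, and ferritin, a shell of heavy (Fth1) and light (Ftl1) chains, stores it. Ferroportin (Slc40a1) is the exporter, and hepcidin is the peptide hormone that binds ferroportin and causes its removal from the membrane. Hepcidin is made mostly by the liver in response to iron, through Hfe and bone morphogenetic protein (BMP) signaling, and to inflammation, through STAT3. Inside the cell, the iron regulatory proteins Aco1 (IRP1) and Ireb2 (IRP2) bind ferritin, ferroportin and transferrin receptor messages when iron is scarce.

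The Hamp promoter is shown because Hamp had the largest difference of these genes. The 250 bases before its start site in RefSeq (build GRCr8, chr1:95300272-95300521, minus strand) are printed 5′ to 3′, with capitals for 3 motifs: GGCGCC, the core of the element through which BMP signaling acts, TTCNNNGAA, the form of site bound by STAT factors, and TGANTCA, the form bound by AP-1 factors.
Hamp promoter: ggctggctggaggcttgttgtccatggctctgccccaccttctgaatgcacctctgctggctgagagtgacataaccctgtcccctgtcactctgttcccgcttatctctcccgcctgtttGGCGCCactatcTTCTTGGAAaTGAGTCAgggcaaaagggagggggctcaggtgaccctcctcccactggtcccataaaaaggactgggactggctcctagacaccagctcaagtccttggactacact

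The 3 motifs begin 129, 117 and 107 bases before the start site and do not overlap each other. As a pattern, each motif reads the same on both strands, while of the printed stretches only GGCGCC does. The motifs were picked with this sequence in view. GGCGCC was found in the same window of 8.69% of 33469 RefSeq promoters, TTCNNNGAA in 7.67% and TGANTCA in 6.34%, and 2 promoters, that of Hamp among them, held all 3. A promoter was listed for 7 of the 10 genes. Of these, Tfrc also held GGCGCC, and Hamp was the only gene of the 7 with either of the other motifs. The letters are a description, and binding of any factor was not measured.

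Hepcidin gave a far stronger signal in atrial than in ventricular pools. Its signal was 8.97, 8.51, 9.19 and 9.07 for atrial replicates 1 to 4, and 5.16, 5.88, 5.27 and 5.46 in ventricular replicates 1 to 4. The tissues did not overlap, and the lowest atrial pool lay 2.63 above the highest ventricular pool. The means were 8.93 ± 0.30 (SD, n = 4 pools) and 5.44 ± 0.32 (SD, n = 4), which differ by 3.49 (standard error 0.17) or 11.3 fold. The ventricular mean was above the dim end of the scale. With each array left out in turn the difference ran from 3.40 to 3.64. Among 14217 genes, each taken at its brightest probe set, Hamp stood at place 28 by difference toward the atria.

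**Figure D1:**
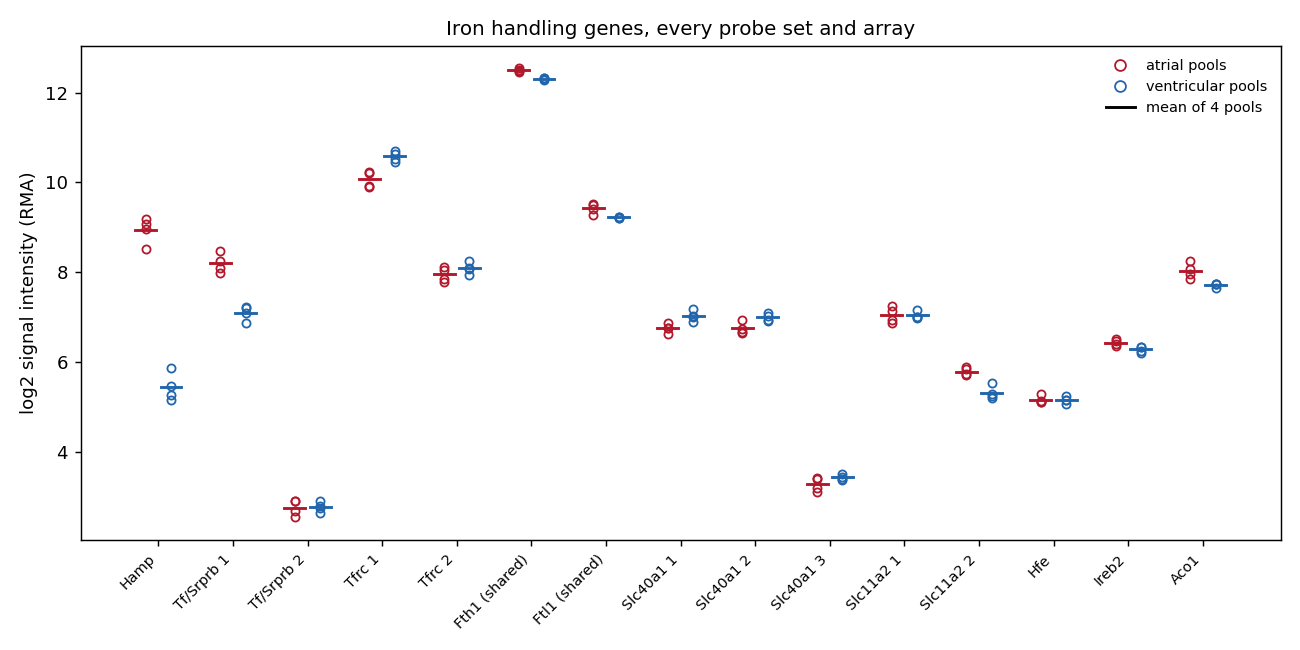
Log2 signal intensity (vertical axis) of the 15 probe sets of the iron handling genes in the 4 atrial (red) and 4 ventricular (blue) pools, each circle 1 array and each bar the mean of 4. A digit after a gene numbers its probe sets from brightest to dimmest. Hamp stands apart from the rest, with atrial pools from 8.51 to 9.19 and ventricular pools from 5.16 to 5.88.

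Transferrin could be read only together with Srprb. The brighter shared probe set was 8.48, 8.09, 7.99 and 8.25 in the atria and 7.23, 6.87, 7.20 and 7.10 in the ventricles. Every atrial pool lay above every ventricular pool, with means of 8.20 ± 0.21 and 7.10 ± 0.16 (SD, n = 4), a difference of 1.10 (standard error 0.11) or 2.15 fold. The dimmer one read 2.76 ± 0.18 in atrial and 2.78 ± 0.11 in ventricular pools, at the dim end of the scale, with overlapping pools. Without atrial replicates 1 and 4 the difference on the brighter probe set was 0.94. Which gene gave the signal was not tested.

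The transferrin receptor went the other way. The brighter Tfrc probe set read 9.90, 10.21, 9.93 and 10.23 in the atria and 10.52, 10.71, 10.46 and 10.63 in the ventricles, so that all atrial pools were below all ventricular pools. The difference was -0.51 (standard error 0.09), a ventricular excess of 1.43 fold. The dimmer Tfrc probe set, at 7.95 ± 0.15 and 8.10 ± 0.12 (SD, n = 4), differed by -0.15 and its pools overlapped, so the probe sets of Tfrc share a direction but not a size.

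Ferritin was nearly alike in the tissues. The probe set of the heavy chain Fth1 read from 12.47 to 12.54 in the atria and from 12.28 to 12.32 in the ventricles. These ranges do not overlap, but the difference was only 0.20 (standard error 0.05), or 1.15 fold. The probe set of the light chain Ftl1 read 9.51, 9.42, 9.27 and 9.50 in the atria and 9.23, 9.24, 9.22 and 9.22 in the ventricles, also a difference of 0.20. Without atrial replicates 1 and 4, those with ventricular marker signal, the Ftl1 difference was 0.12. The Fth1 signal was near the upper end of the intensities, which ran to 13.77 over all probe sets, and whether it was saturated was not tested.

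Ferroportin, the target of hepcidin, was slightly less abundant in the atria on each of its probe sets. The brightest Slc40a1 probe set read 6.88, 6.63, 6.77 and 6.77 in the atria and 7.00, 6.89, 7.02 and 7.19 in the ventricles. The difference was -0.26 (standard error 0.08), and the highest atrial pool lay just under the lowest ventricular pool, by 0.01. The second probe set differed by -0.24 and the third, at the dim end of the scale, by -0.15, and the pools overlapped with both.

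The iron transporter Slc11a2 gave different answers on its probe sets. The brighter read 7.04 ± 0.17 in atrial and 7.04 ± 0.08 in ventricular pools (SD, n = 4), which differ by 0.00 (standard error 0.09). The dimmer read 5.73, 5.71, 5.84 and 5.89 in the atria and 5.53, 5.20, 5.24 and 5.29 in the ventricles, which gave a difference of 0.48 (standard error 0.08) and no overlap. Both are annotated to Slc11a2 alone, and which transcript form each reads was not examined here.

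Among the sensors of iron, Hfe, a partner of the transferrin receptor, read 5.17 ± 0.09 in atrial and 5.16 ± 0.07 in ventricular pools (SD, n = 4), with overlapping pools. Aco1 read 7.97, 8.07, 7.85 and 8.25 in the atria and 7.74, 7.74, 7.65 and 7.75 in the ventricles. All atrial pools were above the ventricular pools, by a mean of 0.32 (standard error 0.08). Ireb2 differed in the same direction, by 0.16 (standard error 0.06), with 6.35 to 6.52 in the atria and 6.21 to 6.34 in the ventricles, a gap between the pools of 0.01. After quantile normalization the Ireb2 difference was 0.09. Without atrial replicates 1 and 4 it was 0.22, and the Aco1 difference was 0.24.

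**Figure D2:**
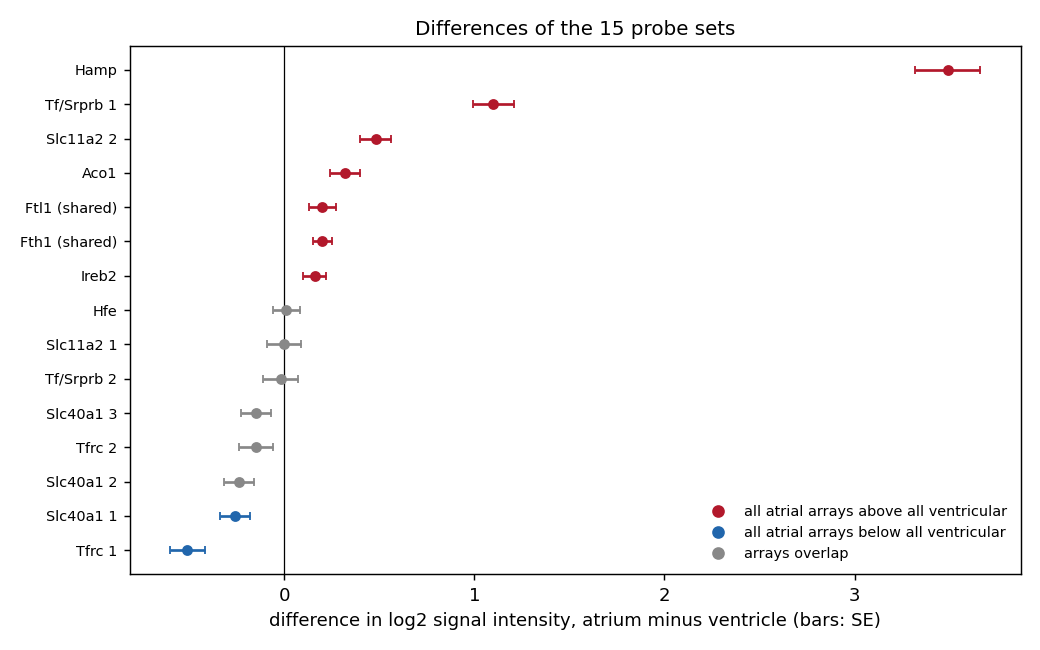
Difference in log2 signal intensity, atrium minus ventricle (horizontal axis), for the 15 probe sets, with standard errors as bars and n = 4 pools per tissue. Red marks probe sets with all atrial arrays above all ventricular arrays, blue the reverse and grey those that overlap. Hamp is farthest to the right at 3.49 and Tfrc farthest to the left at -0.51.

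In 12 of the 15 probe sets the difference was under 0.5 in either direction, the median was 0.01, and over all probe sets the median was -0.05. The pools did not overlap for 9 of the 15, with the atria above for 7 and below for 2, while 37.0% of all probe sets had no overlap. At an adjusted p under 0.05 from limma, 6 of the 15 would be called higher in the atria, where 18.6% of all probe sets were, and 3 lower, where 20.1% were. The study's thresholds, taken as an adjusted p under 0.0001 and a fold of at least 1.8, were met by 2 of the 15, the Hamp probe set and the brighter one shared by Tf and Srprb, and by 4.51% of all probe sets. These counts use the contrast that was in view when the genes were chosen, and nothing is read from them.

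Since hepcidin and transferrin are liver products, hepatocyte markers were examined beside them. Of 10 measured, 0 were higher in the atria and 3 were lower, and 6 were at the dim end of the scale in both tissues. Their summed signal ran from 213 to 245 in the atria and from 285 to 325 in the ventricles. Much of these sums is Ttr (transthyretin), at 6.84 in atrial and 7.59 in ventricular pools, so they do not read the hepatocyte list evenly. Albumin (Alb) varied between atrial pools, at 3.04, 4.44, 3.86 and 5.47, against 3.13 to 3.71 in the ventricles, and its adjusted p was 0.13.

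Markers of several other cell types moved with the atrial side. Of 7 measured mesothelial markers, 5 were higher in the atria, by 3.26 (Krt8) to 5.04 (Upk1b), and 2 were lower. Wt1 differed by -0.38 and Calb2, at the dim end of the scale in both tissues, by -0.25. The ventricular means of Krt8, Krt19 and Upk1b also lay at the dim end. The summed mesothelial signal was 1080 to 2030 against 187 to 213. Of 8 fibroblast markers, 7 were higher, with 15300 to 17400 against 12200 to 13900. Of 9 adipocyte markers, 4 were higher, and their pools did not overlap: Adipoq by 3.23 (5.76 to 8.09 in atrial and 3.43 to 3.99 in ventricular pools), Plin1 by 2.93, Cidec by 2.82 and Cfd by 2.43. The median over the list was 1.70. The summed adipocyte signal, in which Fabp4 is the brightest and did not pass (-0.19), was 1750, 3040, 2360 and 5800 in atrial replicates 1 to 4 and 2420 to 2630 in the ventricles, and so overlapped. Of 5 glial markers 3 were higher and 2 lower, and of 9 macrophage markers 5 were higher, with overlapping sums (1390 to 1840 in the atria and 1510 to 1850 in the ventricles). Of 7 endothelial markers 5 were lower, Kdr the most (-1.34), and Vwf was higher by 0.93. Red cell genes were near equal or lower in the atria, with hemoglobin Hbb at 12.60 in both tissues and 2 of 5 lower. The part of any of these cell types, hepatocytes included, in the Hamp difference was not tested.

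**Figure D3:**
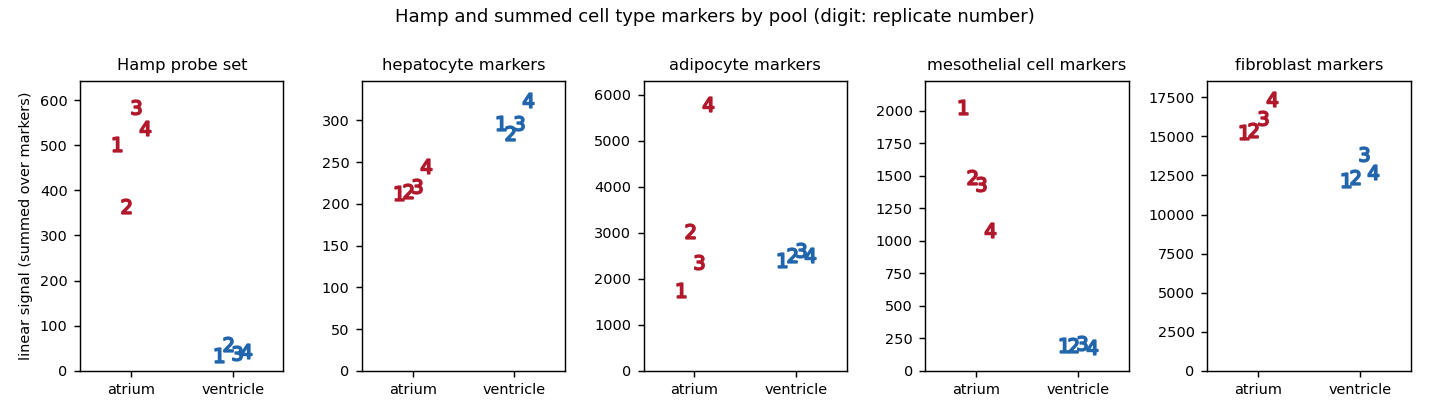
Linear signal of the Hamp probe set and summed linear signal of the hepatocyte, adipocyte, mesothelial and fibroblast markers (vertical axes, each from 0) in atrial (red) and ventricular (blue) pools, the digit giving the replicate number. Hepatocyte marker sums, much of them Ttr, are lower in the atria (213 to 245) than in the ventricles (285 to 325), mesothelial sums are higher (1080 to 2030 against 187 to 213), and atrial replicate 4 is highest for adipocyte markers at 5800.

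Over the 8 arrays, the genes with the pattern most like Hamp were Zfp637, Kdelr3, Erh, Npr3 and Dhrs7, with Pearson correlations of 0.993 to 0.994. The measure mostly reads the step between the tissues, and 816 of 14216 genes had a correlation over 0.95. With the mean of each tissue taken away, the closest were Cyp2c22 (0.972), Sult2b1, Chmp1b, Sbp and Angptl6, all over 8 arrays. Of these, Cyp2c22, Sult2b1, Sbp and Angptl6 had means at the dim end of the scale in both tissues. Both sets are descriptions of these arrays.

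Around these 10 genes, 98 further genes of iron biology in 5 lists were compared between the tissues, each by its brightest probe set with a single gene symbol, of which 89 were measured. The test was limma, its p-values adjusted by Benjamini-Hochberg across the 31042 probe sets. The lists were chosen with earlier results of these data known, so their counts, shares and p-values here and below are a description. At an adjusted p under 0.05, 20 were higher in the atria and 22 were lower. That is 22.5% and 24.7% of the 89, beside 22.5% of all 14217 genes higher and 22.5% lower. The lists as a whole thus lay near the background, and the median differences of single lists ran from -0.18 to 0.15.

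**Figure D4:**
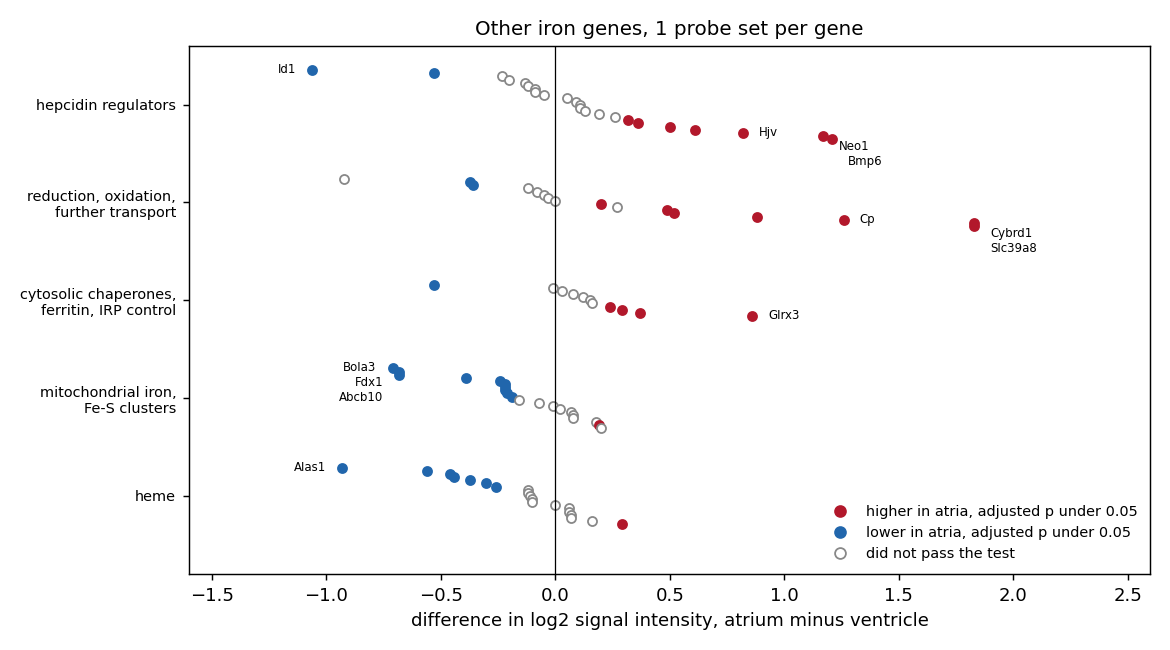
Difference in log2 signal intensity, atrium minus ventricle (horizontal axis), of the measured genes in each of the 5 lists (rows), n = 4 pools per tissue. Red and blue points passed an adjusted p under 0.05 from limma as higher or lower in the atria, and open points did not. Red points reach furthest in the upper rows, up to 1.83 for Slc39a8 and Cybrd1, and the mitochondrial and heme rows hold 10 and 7 of the 22 blue points, with Alas1 at -0.93.

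Of 23 measured regulators of hepcidin, 7 were higher in the atria, 2 lower and 14 short of the threshold, with a median difference of 0.11. The 30.4% higher and 8.7% lower stand beside 22.5% of all genes in each direction. The 3 with the largest difference toward the atria were Bmp6, Neo1 and Hjv. Bmp6, the ligand that tells the liver of iron load, read 8.04, 7.44, 7.62 and 7.50 in the atria and 6.33, 6.44, 6.55 and 6.47 in the ventricles. The pools did not overlap, and the difference was 1.21 (standard error 0.12, adjusted p = 2.0e-05 from limma). A second Bmp6 probe set differed by 1.48, and 2 dimmer ones by 0.03 and -0.04 without passing the test.

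Hemojuvelin (Hjv), the BMP coreceptor of hepcidin control, read 10.55 ± 0.20 in atrial and 9.74 ± 0.09 in ventricular pools (SD, n = 4), a difference of 0.82 (adjusted p = 7.7e-05 from limma). Neogenin (Neo1), which binds hemojuvelin, differed by 1.17 on its brightest probe set and by 1.27 on the next, while the dimmest, at the dim end of the scale, did not pass. Bmp2, a further ligand, the receptor Bmpr1a, the inhibitory Smad7 and the transcription factor Atoh8 were higher by 0.61, 0.32, 0.50 and 0.36. The other probe set of Bmp2 and the 2 others of Smad7 did not share the call.

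The 2 regulators that were lower were Id1 and Smad1. Id1, a common target gene of BMP signaling, was lower in the atria by 1.06 on the log2 scale (difference -1.06, adjusted p = 3.4e-06 from limma), at 8.17 ± 0.16 against 9.23 ± 0.05 (SD, n = 4). Smad1, a transducer of the signal, differed by -0.53 on its brighter probe set and -0.60 on the other. Both are also active in endothelium, of whose 7 markers 5 were lower and 1 higher in the atria, and the part of this was not tested. The receptors Acvr1 (-0.13), Bmpr2 (-0.05) and Acvr2a (-0.23) stayed short of the threshold on their brightest probe sets. So did the transducers Smad4 (0.11) and Smad5 (-0.09), the inhibitory Smad6 (0.26) and the protease Furin (0.09). The other probe set of Bmpr2 and that of Smad4 did pass. Of the 3 other probe sets each of Smad5, Smad6 and Il6st, 2 stayed short. Among the genes that did not pass the test were Stat3 (-0.12), Il6st (0.05), Il6r (0.13) and Il6 (0.11, at the dim end of the scale), which carry the inflammatory signal, and Tfr2, a second transferrin receptor, which was at the dim end in both tissues.

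Of 16 measured genes of iron reduction, oxidation and further transport, 7 were higher in the atria, 2 lower and 7 short of the threshold, with a median of 0.10. The 43.8% higher and 12.5% lower stand beside 22.5% of all genes each way. Slc39a8 (ZIP8), a metal importer that also carries iron, read 7.90, 7.59, 7.45 and 7.14 in the atria and 5.86, 5.80, 5.67 and 5.41 in the ventricles. The difference was 1.83 (standard error 0.15), or 3.56 fold (adjusted p = 5.1e-06 from limma). Cybrd1, a reductase that prepares iron for uptake, read 6.80, 6.53, 6.49 and 6.18 against 4.38, 4.80, 4.64 and 4.88, also a difference of 1.83 (standard error 0.14). With both genes atrial replicate 1 was the highest and replicate 4 the lowest atrial pool, as with the summed mesothelial markers (2030 and 1080). Other list genes, among them Neo1, Hjv and Glrx3, had the same highest and lowest atrial pools. The part of mesothelial cells was not tested.

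Ceruloplasmin (Cp), the copper oxidase that helps ferroportin load iron on transferrin, was higher in the atria on all 3 probe sets, by 1.26, 0.97 and 0.57. The brightest read 6.94 ± 0.07 in atrial and 5.67 ± 0.22 in ventricular pools (SD, n = 4). The dimmest had a ventricular mean of 3.84, at the dim end of the scale. Hephaestin (Heph), the membrane-bound relative of ceruloplasmin, went the other way, by -0.36 (adjusted p = 0.017 from limma), and did not pass without atrial replicates 1 and 4 (-0.38, adjusted p = 0.051). The metalloreductase Steap2 differed by -0.37 on its brighter probe set and by 0.10 on the other, which did not pass. The lipocalin receptor Slc22a17 was higher by 0.88. Lrp1, the heme-hemopexin receptor, was higher by 0.52 on its brighter probe set, but the other did not share the call. Cd163, the haptoglobin-hemoglobin receptor and a macrophage marker, was higher by 0.49, with its ventricular mean (3.68) at the dim end. The endosomal reductase Steap3 was higher by 0.20. Slc39a14 (ZIP14), the closest relative of Slc39a8, differed by -0.08 and did not pass the test.

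Of 11 measured genes of cytosolic iron chaperones, ferritin turnover and control of the iron regulatory proteins, 4 were higher in the atria, 1 lower and 6 short of the threshold, with a median of 0.15. Of the list, 36.4% was thus higher and 9.09% lower, beside 22.5% of all genes each way. Glutaredoxin 3 (Glrx3), a carrier of iron-sulfur clusters, read 10.35 ± 0.17 in atrial and 9.48 ± 0.03 in ventricular pools (SD, n = 4), a difference of 0.86 (standard error 0.08). Its partner Bola2 was higher by 0.24, Skp1, a subunit of the ubiquitin ligase that degrades Ireb2, by 0.37, and the iron chaperone Pcbp2 by 0.29 on its brightest probe set and by 0.01 and -0.01 on the others. Epas1 (HIF2α), whose message the iron regulatory proteins bind, differed by -0.53 and by -0.73 on its other probe set. Epas1 is abundant in endothelium. Ncoa4, the receptor that delivers ferritin for degradation (0.03), Fbxl5, the iron sensing subunit of the ligase for Ireb2 (0.12), and Pcbp1 (0.16) did not pass.

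Of 20 measured genes of mitochondrial iron and iron-sulfur clusters, 10 were lower in the atria, 1 was higher and 9 did not pass the test. That is 50% lower and 5% higher, beside 22.5% of all genes each way, with a median difference of -0.18. Bola3, which passes clusters to mitochondrial enzymes, read 8.49 ± 0.07 in atrial and 9.20 ± 0.12 in ventricular pools (SD, n = 4), a difference of -0.71. Ferredoxin 1 (Fdx1), an electron carrier, differed by -0.68 on its bright probe set and by -0.23 on a dim one that did not pass (adjusted p = 0.057 from limma). The transporter Abcb10 differed by -0.68 and -0.32 on its probe sets. The iron importers of mitochondria Slc25a37 and Slc25a28 differed by -0.39 and -0.19, and the desulfurase Nfs1 by -0.21. The scaffold Iscu (0.07) did not pass. Nubp2, a scaffold of cluster assembly in the cytosol, was the gene that was higher, by 0.19 (adjusted p = 0.044 from limma), and it lost its call under several settings, among them quantile normalization (0.13, adjusted p = 0.12).

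Of 19 measured genes of heme, 7 were lower in the atria, 1 was higher and 11 did not pass the test, with a median of -0.11. The 36.8% lower and 5.26% higher stand beside 22.5% of all genes each way. Alas1, the first and rate-limiting enzyme of heme synthesis outside red cells, read 9.60, 9.56, 9.49 and 9.59 in the atria and 10.54, 10.50, 10.39 and 10.52 in the ventricles. The pools did not overlap, and the difference was -0.93 (standard error 0.06), a ventricular excess of 1.90 fold. The red cell form Alas2, also counted among the red cell markers, differed by -0.46 and Alad, the next enzyme, by -0.44. Urod (0.00), Cpox (0.16) and Fech (-0.11), later in the pathway, did not pass.

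The globins of muscle and other cells were lower in the atria, cytoglobin (Cygb) by a difference of -0.56 and myoglobin (Mb) by -0.26. The heme transporters Slc48a1 and Abcg2 differed by -0.37 and -0.30, the latter at the dim end of the scale. The heme exporter Flvcr1 was higher by 0.29 (adjusted p = 0.041 from limma), with overlapping pools, and did not pass after quantile normalization (0.22, adjusted p = 0.11). Without atrial replicates 1 and 4 the Flvcr1 difference was 0.46 (adjusted p = 0.0021). Heme oxygenase 1 (Hmox1), which releases iron from heme, differed by -0.12 and its relative Hmox2 by 0.06, and neither passed. Of 9 cardiomyocyte markers, 1 was higher in the atria and 3 were lower, with sums of 50500 to 53600 against 55200 to 56700. Mb is among those 3, so the marker and heme counts share a gene. The part of this in the mitochondrial and heme genes was not tested.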

How the data were processed

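RNA of 4 atrial and 4 ventricular pools was read on 8 arrays. RMA was used by the authors for background adjustment, quantile normalization and summarization, and the deposited log2 intensities cover 31042 probe sets, from 1.9 to 13.77 with array medians of 4.8 to 4.81. The RMA version was not given in the sources used here. The values were used without further scaling. The number of arrays limits the precision, and over all probe sets the median SD was 0.117 for atrial and 0.0986 for ventricular pools.

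The tissues were compared by limma 3.58.1 in R 4.3.3 across all probe sets, with Benjamini-Hochberg adjustment. The procedure was tested on simulated data. The study used Significance Analysis of Microarrays (SAM) at an FDR of 0.01% with a 1.8 fold criterion, which was run here as an alternative with 70 permutations. By the annotation of the platform, 20826 probe sets have 1 symbol, 436 several and 9780 none, and 20758 symbols were brought up to date by gene ID with RefSeq (GRCr8). For each gene the brightest probe set by mean was used. List genes without a probe set of their own were not analysed here. Sums of markers are sums of linear signal.

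The members and lists were chosen with earlier results of these data known. Named genes are all 10 members, the 3 called genes of each list with the largest difference in each direction, and the 5 genes most like Hamp by each measure. Further genes of the lists, and markers, were named for their role after values had been seen.

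Alternatives were quantile normalization and cyclic loess between arrays, median centring, a trended and robust fit, the replicate number as a block, the dimmest 40% left out, the mean of the probe sets of a gene, every probe set of a member, each array left out, and, added after the values were seen, atrial replicates 1 and 4 left out. Whether replicate numbers pair the pools was checked through deviations from the tissue means, whose correlations for pools of the same number ran from -0.188 to 0.155. Each atrial pool correlated most with a different ventricular pool. These were atrial 1 with ventricular 1 (0.134), 2 with 2 (0.155), 3 with 4 (0.225) and 4 with 3 (0.278). The numbers were therefore not taken as pairs, and the main fit treats the pools as unpaired. A fit with the pools paired in that order was not run, and whether they pair so was not tested further. Plots were made in Python 3.11.15 (matplotlib 3.10.9).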

Additional observations from a re-analysis of the deposited data

Results flagged for a closer look

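In 3 of 74 groups of 4 pools, over the probe sets of the members and of the named list genes, 1 pool lay far from the others by Dixon's criterion, which chance meets in about 1 group of 20. Hfe read 5.30 in atrial replicate 2 and 5.12 to 5.13 in the other atrial pools. Aco1 read 7.65 in ventricular replicate 3 and 7.74 to 7.75 in the other ventricular pools. Hjv read 10.26 in atrial replicate 4, which among atrial pools also had the highest ventricular and adipocyte marker signal, and 10.63 to 10.69 in the other atrial pools.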

How the results depend on the processing

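The count of other iron genes higher in the atria (20) ran from 16 to 21 and of those lower (22) from 19 to 25 over the settings other than leaving out 1 array, and from 17 to 21 and 17 to 24 with 1 array left out. Counts over all probe sets with 1 array left out ran from 5045 to 6356 higher, 5047 to 7200 lower and 1105 to 1594 past the study's thresholds. With the replicate number as a block, 17 iron genes were higher and 19 lower, and 971 probe sets passed the study's thresholds in place of 1400. SAM gave 1642. Of 330 values of the 22 named list genes under these settings, 310 kept their direction and call, 20 kept their direction without passing (Nubp2, Flvcr1 and Heph) and 0 changed sign. The block changed the call of Nubp2 (adjusted p = 0.069) and of Flvcr1 (0.062) and of no other named list gene. Differences of Hfe and of the brighter Slc11a2 probe set, both near 0, changed sign in 10 of 140 member values, and the other members did not. The 140 values are of the brightest probe set of each member and leave out the other probe sets. Of those, the dimmer one shared by Tf and Srprb differed by -0.02, against 1.10 on the brighter. The probe sets shared by Tf, Fth1 and Ftl1 with other genes limit what can be said of each.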

Other observations

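Lipocalin 2 (Lcn2), which carries iron bound to siderophores and is made by neutrophils and stressed epithelium, had the widest spread between pools of the 89 list genes measured, and was singled out after its values were seen. It read 5.22, 5.81, 4.91 and 6.84 in the atria and 6.61, 6.56, 7.23 and 6.08 in the ventricles. The difference of -0.92 had a standard error of 0.37 and stayed short of the threshold (adjusted p = 0.071 from limma). Atrial replicate 4 lay within the ventricular range and the other 3 atrial pools below it.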
